A study of Mus musculus with 4 samples.

Results

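Resting Lgr5 stem cells of the mouse small-intestinal crypt were examined in 4 single-cell RNA-sequencing libraries, 2 labelled 0D and 2 labelled 2D. The series design speaks of sleep deprivation, with epithelium taken from mice before it and after it. The groups are read here in that order, although the labels do not spell out the letter D, and they give no genotype, strain or age. Crypts were detached from the tissue with EDTA, and whole crypt fractions were loaded with no sort for any cell type. Separate animals are not stated for the libraries, so a p-value here speaks of the spread among 4 libraries, and that spread may be technical.

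Lgr5 stem cells sit at the crypt base between Paneth cells and renew the whole epithelium. Lgr5 is a receptor that strengthens Wnt signals at the cell surface, Ascl2 is a transcription factor that maintains the stem state, and Olfm4 is a secreted glycoprotein made by these cells. Most of them divide daily, and the cells described here are those with few transcripts of the division genes named below.

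The cells were chosen by transcript counts. Cells entered with 500 or more genes detected and a mitochondrial share of up to 20% of their UMIs (unique molecular identifiers, each counting 1 captured transcript molecule). For these cells 7 scores of 3 marker genes each were computed as means of z-scored log counts. A cell was kept if its stem score (Lgr5, Olfm4, Ascl2) was at least 0.5 and the highest of the 6 lineage scores. Its score for Mki67, Top2a and Cenpf, genes of dividing cells, had to be below 0.5, with at most 1 UMI of Mki67 and Top2a together. This gave 838 cells of the 29731 that passed the filters. There were 347 in 0D-1, 200 in 0D-2, 122 in 2D-1 and 169 in 2D-2, and values for all 4 libraries are given in this order throughout. The same rule without the limit on division left 2292 further cells, called dividing stem cells here. Enterocytes, goblet cells and Paneth cells named below for comparison are non-dividing cells whose own score was the highest and at least 0.5. Levels below are CPM, the counts of a gene scaled to the usual common total of UMIs summed over the resting stem cells of a library, and they rank libraries for 1 gene at a time.

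The markers the rule used were carried unevenly by its members. Of the 838 cells, 516 (61.6%) held an Lgr5 UMI, 781 (93.2%) an Olfm4 UMI, 353 (42.1%) an Ascl2 UMI and 200 (23.9%) all 3. The single UMI of Mki67 or Top2a that the rule allows was present in 308 cells (36.8%), with shares of 38.3%, 37.0%, 45.9% and 26.6% by library. The 56 cells with a stem score from 0.5 to 0.6 held 2099 CPM of Olfm4 but 8.97 CPM of Lgr5 and 3.59 CPM of Ascl2. The 36 cells just outside, from 0.4 to 0.5, held 1466 CPM of Olfm4 and 10.4 CPM of Lgr5. Cells near the limit on either side were therefore chosen on Olfm4 with little support from the other markers.

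As a description, the genes that stood highest in the resting stem cells over all other cells were, in order, Lgr5, Olfm4, Gkn3, Ascl2, Kcnq1ot1, Igfbp4, Cdca7, Jaml, Axin2 and Cdk6. Lgr5 stood at 150 CPM against 12.4 CPM in the other cells, and Olfm4 at 4810 against 448. Among genes the rule did not use, Gkn3 (a gastrokine family gene) stood at 67.5 against 6.12 CPM, Axin2 (a Wnt target and feedback inhibitor) at 128 against 21.4 CPM, and Igfbp4 (an insulin-like growth factor binding protein) at 76.9 against 10.8 CPM. Dividing stem cells had lower levels of the receptor and of Gkn3, at 85.3 CPM for Lgr5 and 41.6 CPM for Gkn3, and 118 CPM for Axin2. The label of Lgr5 stem cell was thus met by genes outside the rule.

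Markers of cells other than epithelium were at or near 0, except for a myeloid list. Its 9 markers summed to 30.5, 27.2, 28.6 and 20.6 CPM, and 4 of the 9 had no UMI in any library. The myeloid sum was 31.5, 27.8, 29.1 and 20.2 CPM in dividing stem cells and 5.11, 4.35, 5.30 and 4.87 CPM in enterocytes. All 9 T cell markers and all 4 erythroid markers had no UMI in the resting cells of any library, as did 6 of 8 B and plasma cell markers and 7 of 9 stromal and endothelial markers. A count of 0 allows up to 2.38 CPM in the shallowest sum, that of 2D-2 (3 counts of its total), for counting error only. Markers of secretory epithelium were present and differed between libraries. The summed level of 9 goblet cell markers was 8610, 6782, 12376 and 15875 CPM, and that of 11 Paneth cell markers was 9344, 6635, 11034 and 15097 CPM. Both sums were higher in each 2D library than in either 0D library. Each includes 3 genes that scored the lineages in the rule, and without these the goblet sum was 6029, 4744, 8245 and 11454 CPM and the Paneth sum 3169, 2895, 4106 and 4896 CPM, again higher in each 2D library. In enterocytes, which should lack these products, the goblet sum with all markers was 6444, 5152, 5542 and 7792 CPM and the Paneth sum 1485, 2279, 7364 and 7286 CPM.

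The members also varied in how clean their stem profile was. A score of at least 0 for some other lineage was found in 61 of 347 cells (17.6%) of 0D-1, 58 of 200 (29.0%) of 0D-2, 49 of 122 (40.2%) of 2D-1 and 72 of 169 (42.6%) of 2D-2. For the Paneth score alone the shares were 6.34%, 17%, 32.0% and 30.2%, and for the goblet score 4.61%, 6.5%, 18.0% and 12.4%. Shares of cells and the tests between the groups were therefore also computed with only the cells whose 5 other lineage scores were all below 0, called the stricter selection. The comparison with dividing stem cells was not run on it.

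Depth per cell differed between libraries without following the groups, while the summed depth behind the tests was lower in both 2D libraries. The resting stem cells had medians of 9326, 10620, 12796 and 7656 UMIs per cell, and their summed UMIs were 3313532, 2021246, 1540811 and 1262143. Median mitochondrial shares were 5.51%, 5.04%, 6.28% and 5.14%. Between any 2 libraries, 13 to 16 cell barcodes were shared among all filtered cells, and among resting stem cells only 0D-2 and 2D-2 shared any, with 1 barcode. The root mean square log2 difference over tested genes was 0.343 within the 0D pair and 0.473 within the 2D pair, against 0.437 to 0.474 between libraries of different groups.

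Whether these cells became rarer was asked first. Resting stem cells made up 4.57% of filtered cells in 0D-1, 2.80% in 0D-2, 1.74% in 2D-1 and 2.12% in 2D-2. Their mean share was 3.69% ± 1.25 (SD, n = 2) in 0D and 1.93% ± 0.268 (SD, n = 2) in 2D, a difference of -1.76 percentage points. It was -0.878 when 0D-1 was left out and -2.65 when 0D-2 was. The groups did not overlap, but an exact permutation test (two-sided, over libraries) gave p = 0.3333, the smallest value that 2 against 2 libraries allow. A share of cells depends on how many cells of other types were released and kept. Dividing and resting stem cells together made up 15.5% and 12.2% in 0D and 7.76% and 6.79% in 2D (exact permutation p = 0.3333).

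The balance between resting and dividing stem cells showed no such separation. Resting cells were 29.5%, 23.1%, 22.4% and 31.2% of all Lgr5-type stem cells, and the groups overlapped. The mean was 26.3% ± 4.55 (SD, n = 2) in 0D and 26.8% ± 6.22 (SD, n = 2) in 2D, with an exact permutation p of 1.0. The rule's limit on division counts UMIs, and the balance moved with depth. With every cell thinned to 2000 UMIs it was 55.5% in 0D and 51.6% in 2D, while the share of resting cells among filtered cells became 7.83% and 3.75%.

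**Figure D1:**
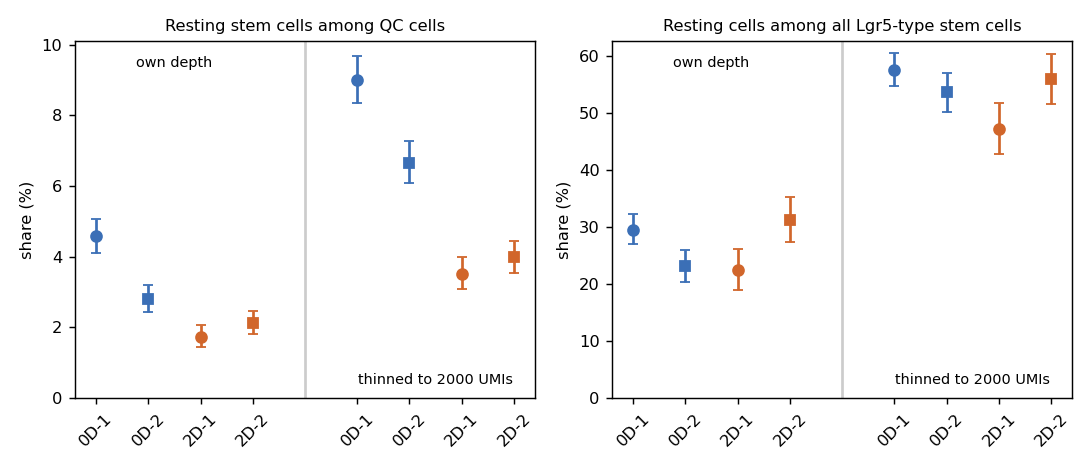
Share of resting stem cells among filtered cells (left) and among all Lgr5-type stem cells (right) in percent, 1 point per library with its exact 95% binomial interval, at the cells' own depth and after thinning to 2000 UMIs; blue is 0D and orange is 2D. On the left both 2D points lie below both 0D points at either depth, and on the right the groups overlap at either depth.

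Changes of gene expression between 0D and 2D were tested on UMIs summed per library with edgeR's quasi-likelihood test and Benjamini-Hochberg adjustment over 9117 genes. At an adjusted p under 0.05, 42 genes (0.461%) were called, 31 of them higher in 2D (0.34% of genes tested) and 11 lower (0.121%). One of the 31, Muc2, had served to choose the cells and is given below without a test. DESeq2 called 37 genes, of which 19 were higher and 18 lower, and it shared 19 calls with edgeR. It did not call Klf4, Nr4a1, Atf3, Iigp1, Anxa2, Scd2, Xbp1, Reg3b, Gstp1, Hist1h1e or Hist1h4d, which edgeR called and which are described below. At an unadjusted p under 0.05, 6.95% of genes were higher and 6.58% lower. The CPM ranges of the 2 groups did not overlap for 4126 of the 9117 genes (45.3%), so a lack of overlap alone says little.

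The calls rested on few libraries and on which cells were admitted. All 42 kept their direction when any 1 library was left out, but the call was kept by 12 when 2D-1 was left out, by 30 when it was 2D-2, by 31 when it was 0D-1 and by 38 when it was 0D-2. The 10 genes called in each of these 4 fits were Guca2a, Hpd, Neat1, Hspa5, Defa17 and Spink4 among the higher, and Gm42418, Clca4b, Dhrs4 and mt-Atp8 among the lower. In the stricter selection 20 genes were called, 6 higher and 14 lower, and 15 of them were among the 42 (Atf3, 1 of the 15, with the opposite sign). All 6 higher genes there had been called higher before, namely Reg3g, Reg3b, Rbm3, Anxa2, Pla2g5 and Marcksl1. Of the 31 higher genes, 22 (71.0%) had a level in 0D goblet cells at least 3-fold that in 0D resting stem cells, against 5.32% of all genes tested and 0 of the 11 lower genes. Muc2, which chose the cells, was among these 22.

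Genes of stem identity were not called in either direction. Of 36 tested members of an Lgr5 stem signature outside the rule, 25 lay above 0 and 11 below, with a median log2 difference of 0.09. Of all genes, 50.5% lay above 0, with a median of 0.0044. At an unadjusted p under 0.05, 3 of the 36 were higher and 1 lower, and DESeq2 called 0. The levels of Lgr5 were 151, 116, 151 and 200 CPM. Those of Olfm4 were 4899, 4673, 4453 and 5228 CPM, and those of Ascl2 66.4, 64.8, 53.9 and 87.9 CPM. All 3 markers overlapped between the groups, and since they chose the cells they were not tested.

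Members of the signature outside the rule did not pass the test, and those named here lay on both sides of 0. Rgmb, a co-receptor for bone morphogenetic proteins, was at 87.2 and 78.2 CPM in 0D and at 109 and 135 CPM in 2D, a log2 difference of 0.47 ± 0.15 (SE) that did not pass (adjusted p = 0.232). Smoc2, a secreted matrix protein typical of these cells, was at 162 and 135 CPM in 0D and 164 and 200 CPM in 2D (adjusted p = 0.606). Slc12a2, the sodium, potassium and chloride cotransporter, was at 970 and 866 CPM in 0D and 1048 and 1117 CPM in 2D (adjusted p = 0.623). Tnfrsf19, a Wnt-induced receptor also called Troy, had a log2 difference of 0.78 ± 0.28 (SE), and did not pass (adjusted p = 0.266). Fstl1, a secreted follistatin-like protein, was at 8.75 and 6.43 CPM in 0D and 2.60 and 4.75 CPM in 2D, a log2 difference of -1.20 ± 0.48 (SE) that did not pass (adjusted p = 0.310). Slc14a1, a urea transporter, and Sp5, a Wnt target, had -0.57 (adjusted p = 0.490) and -0.44 (adjusted p = 0.509), with overlapping groups.

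Reserve stem cell genes and signalling pathways of the niche gave 1 call, although the lists did not lie alike around 0. None of 12 tested reserve and slow-cycling genes was called by edgeR or DESeq2, 1 had an unadjusted p under 0.05, and 6 lay on either side of 0. Hopx, a marker of slow-cycling cells, was at 101 and 94.0 CPM in 0D and 86.3 and 79.2 CPM in 2D (adjusted p = 0.329). None of 18 Wnt, 12 bone morphogenetic protein or 9 EGF and ERK genes was called by either tool. At an unadjusted p under 0.05, 4, 3 and 2 of them were higher, and 1 Wnt gene was lower. Their median log2 differences were 0.13, 0.03 and 0.39, and that of the EGF and ERK genes was 0.02 in the stricter selection. Myc, a Wnt target that drives growth, was at 39.8 and 32.2 CPM in 0D and 64.9 and 51.5 CPM in 2D and did not pass (adjusted p = 0.202). Of 14 tested Notch and fate genes 1 was called, Klf4, a transcription factor of goblet and other differentiated cells, which rose from 26.0 and 31.2 CPM to 55.2 and 69.7 CPM (log2 difference 1.05 ± 0.19 (SE), adjusted p = 0.0321). Its call was lost in the stricter selection (0.33, adjusted p = 0.831), without 0D-1 (adjusted p = 0.0503) and without 2D-2 (adjusted p = 0.0845).

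Several of the called genes are products of goblet cells. Goblet cells make the mucus gel, and the rule capped this profile only through the stem score having to be the highest. Muc2, the gel-forming mucin used in the rule, stood at 524, 353, 1391 and 925 CPM. Fcgbp, a mucus protein that binds the gel, was at 666 and 484 CPM in 0D and 1142 and 1436 CPM in 2D, and rose by a log2 difference of 1.08 ± 0.17 (SE, adjusted p = 0.0182; 0.052 without 2D-2). Spink4, a small secreted inhibitor-like peptide of goblet cells, was at 2384 and 2282 CPM in 0D and 4193 and 6423 CPM in 2D, and rose by 1.11 ± 0.18 (SE, adjusted p = 0.0206). In these genes each 2D library was above each 0D library, while 45.3% of all genes tested had groups without overlap in either direction.

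In all, 2 of the 6 tested goblet markers outside the rule were called higher, against 0.34% of all genes, and all 6 lay above 0 with a median log2 difference of 0.78. In the stricter selection Fcgbp and Spink4 had log2 differences of 0.58 (adjusted p = 0.345) and 0.38 (adjusted p = 0.394), and neither passed. The median number of goblet UMIs in a cell thinned to 2000 UMIs was 2, 2, 2 and 3. The 90th percentile was 6, 16, 113 and 129. The difference in the sums thus lay in a minority of the cells, while the median cell held about the same few UMIs in each library.

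UMIs of these genes were also found in cells that do not make them. After thinning, a Muc2 UMI was found in 15.9%, 16.02%, 36.4% and 25.3% of resting stem cells, and in 13.4%, 15.6%, 26.2% and 21.6% of enterocytes, which do not make it. The unthinned shares were 36.0%, 43.5%, 75.4% and 52.7% in resting stem cells. For Fcgbp the thinned shares were 20.1%, 22.7%, 30.5% and 34.0% in resting stem cells against 18.6%, 17.2%, 27.4% and 24.1% in enterocytes. In enterocytes the summed levels were 448, 333, 579 and 494 CPM for Muc2 and 797, 602, 770 and 950 CPM for Fcgbp. The part of transcripts from other cells in the UMIs of resting stem cells was not tested. The exact 95% intervals of the shares in the 2 cell types overlapped in every library for both genes. Spink4 differed, with 44.4%, 53.6%, 51.7% and 72.0% of resting stem cells against 35.4%, 40.7%, 44.1% and 58.4% of enterocytes, and the intervals lay apart in 0D-1, 0D-2 and 2D-2. For Tff3, which chose the cells, they lay apart in 0D-1 and 2D-2. Median depths were 7656 to 12796 UMIs in resting stem cells and 11248 to 17629 UMIs in enterocytes.

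The guanylin peptides and several further secretory genes went the same way. Guca2a (guanylin, a peptide that sets salt and water secretion) rose from 407 and 432 CPM to 773 and 742 CPM, a log2 difference of 0.77 ± 0.11 (SE, adjusted p = 0.0173). Guca2b (uroguanylin) was at 80.3 and 117 CPM in 0D and 288 and 208 CPM in 2D, and rose by 1.27 ± 0.18 (SE, adjusted p = 0.0173; 0.115 without 2D-1). Goblet cells of 0D held 6713 and 7189 CPM of Guca2a, far above resting stem cells. In the stricter selection both missed the threshold, at 0.34 (adjusted p = 0.661) and 0.81 (adjusted p = 0.273).

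Qsox1, an enzyme that forms disulfide bonds in secreted proteins, rose by 1.06 ± 0.15 (SE, adjusted p = 0.0173; 0.0824 without 2D-1). Hpd, an enzyme of tyrosine breakdown, rose from 13.9 and 20.8 CPM to 51.9 and 57.05 CPM (1.61 ± 0.21 (SE), adjusted p = 0.0173). Hgfac, a protease that activates hepatocyte growth factor, rose from 12.7 and 8.91 CPM to 38.9 and 33.3 CPM (1.61 ± 0.25 (SE), adjusted p = 0.0182; 0.137 without 2D-1). Both Hpd and Hgfac were too low to be tested in the stricter selection, and Qsox1 lost its call there (0.53, adjusted p = 0.540). Neat1, the nuclear RNA that scaffolds paraspeckles, rose from 244 and 258 CPM to 718 and 481 CPM (1.17 ± 0.15 (SE), adjusted p = 0.0173), but its log2 difference turned to -0.33 in the stricter selection (adjusted p = 0.520).

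**Figure D2:**
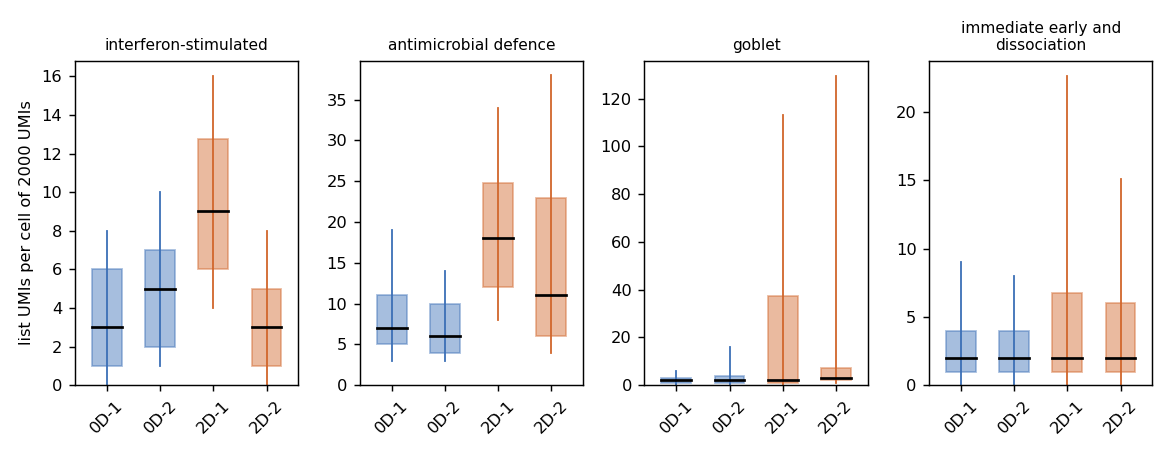
UMIs of 4 gene lists per resting stem cell after thinning each cell to 2000 UMIs, by library; the black line is the median, the box spans the 25th to 75th percentile and the thin line the 10th to 90th. Antimicrobial UMIs are higher across the cells of both 2D libraries, interferon UMIs across those of 2D-1, and goblet and immediate early UMIs differ in the upper percentiles while their medians stay at 2 or 3.

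Paneth cell genes gave fewer calls. Of 8 tested Paneth markers outside the rule 1 was called higher, and 6 lay above 0, against 0.34% and 50.5% of all genes tested. Defa17, an antimicrobial alpha-defensin whose reads can be split with near-identical copies, rose from 407 and 346 CPM to 655 and 854 CPM (0.92 ± 0.15 (SE), adjusted p = 0.0198). Its level is therefore uncertain, and in the stricter selection the difference was 0.57 (adjusted p = 0.481). Mmp7, the protease that activates defensins, was at 216 and 259 CPM in 0D and 552 and 335 CPM in 2D and did not pass in edgeR (adjusted p = 0.0888), though it did in DESeq2 (adjusted p = 0.0045). The Paneth sum in enterocytes also stood higher in the 2D libraries, as given above.

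Reg lectins kept their rise in the stricter selection. Reg3b and Reg3g are secreted lectins that act against bacteria near the epithelium. Reg3g was at 531 and 292 CPM in 0D and 1357 and 1044 CPM in 2D, and rose by a log2 difference of 1.45 ± 0.23 (SE, adjusted p = 0.0182), with 1.82 in the stricter selection (adjusted p = 0.000154). Reg3b was at 945 and 308 CPM in 0D and 2266 and 3798 CPM in 2D, and rose by 2.18 ± 0.40 (SE, adjusted p = 0.0374), with 2.50 in the stricter selection (adjusted p = 0.0134). The groups did not overlap for either gene, which held for 45.3% of all genes tested. Reg3g lost its call without 2D-1 (1.27, adjusted p = 0.142), and Reg3b without 2D-1 (2.52, adjusted p = 0.0859) or 2D-2 (adjusted p = 0.145).

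These 2 were the called members among 10 tested antimicrobial genes, and 7 of the 10 lay above 0 with a median of 0.68. Of all genes tested, 0.34% were called higher and 50.5% lay above 0. The 16 genes of the list summed to a median of 7 and 6 UMIs per thinned cell in 0D and 18 and 11 in 2D, and the 10th percentile was 3 and 3 against 8 and 4. The shift thus reached the lower percentiles as well. Reg lectins are abundant in enterocytes, where Reg3b stood at 8675, 6788, 25573 and 14964 CPM, higher in 2D as well. A thinned Reg3b UMI was found in 31.2%, 23.8%, 78.8% and 54.7% of resting stem cells, and in 77.9%, 77.2%, 99.1% and 89.8% of enterocytes. The part of free transcripts in the rise of the resting stem cells was not tested. Tifa, an adaptor for sensing of bacterial sugars, was at 77.6 and 60.9 CPM in 0D and 142 and 98.2 CPM in 2D and did not pass (adjusted p = 0.140).

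Genes of the unfolded protein response in the endoplasmic reticulum lay above 0 without exception. Of 18 tested members 2 were called higher, against 0.34% of all genes, and 13 had an unadjusted p under 0.05, against 6.95% of all genes. All 18 lay above 0, against 50.5% of all genes, with a median log2 difference of 0.49. All 18 still lay above 0 in the stricter selection, with a median of 0.41. Hspa5, the lumenal chaperone BiP, was at 311 and 359 CPM in 0D and 567 and 694 CPM in 2D, and rose by 0.83 ± 0.13 (SE, adjusted p = 0.0194). Xbp1, the transcription factor activated by splicing during this response, was at 58.5 and 53.9 CPM in 0D and 97.4 and 108 CPM in 2D, and rose by 0.77 ± 0.14 (SE, adjusted p = 0.0442).

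The call of Xbp1 was lost without 0D-2 (adjusted p = 0.0544), 2D-1 (0.0949) or 2D-2 (0.0977), and that of Hspa5 held without each library but had an adjusted p of 0.0625 in the stricter selection. Ddit3 (CHOP), a factor of the late response, was at 13.3 and 10.4 CPM in 0D and 32.5 and 22.98 CPM in 2D and did not pass (adjusted p = 0.110). Goblet cells held 1533 and 1608 CPM of Hspa5 in 0D, above the resting stem cells. Thinned cells with an Hspa5 UMI made up 39.3%, 44.2%, 62.7% and 64.0% of resting stem cells. The shares were 61.1%, 62.6%, 82.8% and 75.6% in enterocytes, also higher in 2D. The ER stress list summed to 3598, 3892, 4942 and 4538 CPM in enterocytes, so the higher level was not particular to the stem cells.

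The ER stress response element, CCAAT separated by 9 bases from CCACG, is the sequence through which ATF6 with NF-Y activates chaperone genes. It was searched on both strands in the 250 bases before the start of each gene in RefSeq promoters of build GRCm38.p6, of which 16 of the 18 tested members had one. A match was found in 6 of the 16 (37.5%), against 0.13% of all 27025 genes with a promoter and 0.15% of the genes tested here. The matches are shown because these letters are a feature that several members share apart from their expression. The capitals mark the fixed letters, and each is read 5′ to 3′ along the strand of the match.
Hspa5, 65 bases before the start, chr2:34772025-34772043, plus strand: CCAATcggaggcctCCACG
Hsp90b1, 212 bases before the start, chr10:86705638-86705656, minus strand: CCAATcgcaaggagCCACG
Dnajc3, 105 bases before the start, chr14:118937827-118937845, plus strand: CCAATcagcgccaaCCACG
Pdia6, 98 bases before the start, chr12:17266491-17266509, plus strand: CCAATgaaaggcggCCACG
Calr, 162 bases before the start, chr8:84847075-84847093, plus strand: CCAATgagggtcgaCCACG
Creld2, 126 bases before the start, chr15:88819520-88819538, minus strand: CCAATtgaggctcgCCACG

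Hsp90b1 held a second match, so 2 lay in its window. The log2 differences of these 6 genes ran from 0.83 for Hspa5 to 0.07 for Pdia6. Creld2, a chaperone-like protein induced by this stress, was at 25.05 and 32.7 CPM in 0D and 43.5 and 55.5 CPM in 2D (0.71 ± 0.20 (SE), adjusted p = 0.175). Dnajc3, a co-chaperone of BiP, had a difference of 0.50 ± 0.17 (SE, adjusted p = 0.253). Hsp90b1, Calr and Pdia6, lumenal folding proteins of high level, had 0.23, 0.24 and 0.07, and none of these 3 passed (adjusted p = 0.403, 0.414 and 0.886). A match in this window is a description and no evidence of binding, and the genes that held it differed in size of change among themselves.

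Interferon-stimulated genes were set by 1 library. Interferons are signals of infection that induce a wide antiviral set through STAT and IRF factors. Of 22 tested members 21 lay above 0 with a median log2 difference of 1.43, 19 had an unadjusted p under 0.05, and 1 was called. Among all genes tested, 50.5% lay above 0, 6.95% were higher at an unadjusted p under 0.05 and 0.34% were called higher. Relative to the mean of the 0D libraries the median member stood at 1.97 in 2D-1 and 0.33 in 2D-2. Without 2D-1 the median log2 difference was 0.26, and 15 of 22 lay above 0.

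Irf7, a factor that amplifies interferon production, was at 11.2, 8.41, 222 and 17.4 CPM and did not pass (adjusted p = 0.0863). Isg15, a ubiquitin-like modifier, was at 9.66, 18.3, 188 and 11.1 CPM (adjusted p = 0.160), and its log2 difference of 2.86 turned to -0.31 without 2D-1. Stat2, the signal transducer of type I interferon, was at 3.92, 2.97, 33.1 and 10.3 CPM (adjusted p = 0.0616), and Rtp4 at 7.54, 9.40, 70.1 and 13.5 CPM (adjusted p = 0.109). In these 4 genes 2D-1 stood highest by a wide margin. The 1 called member, Iigp1, a GTPase that attacks the vacuoles of intracellular parasites, was at 6.04 and 7.92 CPM in 0D and 42.2 and 22.98 CPM in 2D (2.19 ± 0.33 (SE), adjusted p = 0.0182; 1.69 and 0.154 without 2D-1).

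Interferon UMIs were spread over the resting stem cells of 2D-1. A thinned cell held a median of 9 interferon UMIs in 2D-1 against 3, 5 and 3 in 0D-1, 0D-2 and 2D-2, and its 10th percentile was 4 against 0, 1 and 0. No resting stem cell of 2D-1 lacked an interferon UMI, against 14.7% of those in 2D-2 (0 of 118 cells, which allows a share of up to 2.54%). The list also summed higher in enterocytes of 2D-1 (6233 CPM) than of the other libraries (1561 to 1851 CPM), so the library stood apart outside its stem cells as well. The part of transcripts from other cells in the interferon UMIs of the resting stem cells was not tested.

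The interferon-stimulated response element was searched in the same windows as GAAA, 2 bases and GAAA on either strand. It was found in 7 of the 16 tested members with a promoter (43.8%), against 3.46% of all genes and 2.94% of genes tested. Isg15 is shown because its 3 matches overlap in 1 stretch, which begins 78 bases before the start at chr4:156200875-156200896 on the minus strand, with the fixed letters in capitals. Stat2 is shown for a single match, which begins 222 bases before the start at chr10:128270276-128270285 on the minus strand.
Isg15: GAAAagGAAAccGAAAcaGAAA
Stat2: GAAActGAAA

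MHC class II genes, which present antigen and are known to be expressed by Lgr5 stem cells, lay below 0 for 6 of 7 tested members, with a median log2 difference of -0.35, and none was called by edgeR or DESeq2 (2 lower at an unadjusted p under 0.05). The median was -0.56 when 2D-2 was left out and -0.15 when 2D-1 was. H2-Ab1, a beta chain, was at 355 and 465 CPM in 0D and 306 and 349 CPM in 2D (adjusted p = 0.260). H2-Aa, its alpha partner, was at 143 and 225 CPM in 0D and 115 and 158 CPM in 2D (adjusted p = 0.312). The 0D libraries differed from each other here, with 0D-2 higher for both chains.

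Immediate early genes, switched on within minutes by growth factors, stress and tissue dissociation, gave 2 calls of 17 tested, both higher. Among all genes tested, 0.34% were called higher. Nr4a1, a nuclear receptor of this class, was at 10.3 and 8.41 CPM in 0D and 33.1 and 33.3 CPM in 2D (1.71 ± 0.24 (SE), adjusted p = 0.0173; 0.0824 without 2D-1). Atf3, a stress-induced repressor, was at 89.9 and 74.2 CPM in 0D and 151 and 177 CPM in 2D (0.90 ± 0.15 (SE), adjusted p = 0.0203; 0.0514 if 2D-1 is left out and 0.0816 if 2D-2 is). Fos, a subunit of AP-1, was at 189 and 162 CPM in 0D and 267 and 332 CPM in 2D. It did not pass in edgeR (adjusted p = 0.0666), though it did in DESeq2 (adjusted p = 0.0133). Fos was the only member of the list that DESeq2 called, so Nr4a1 and Atf3 were not called there. Dusp1, a phosphatase that ends kinase signals, did not pass either (0.83 ± 0.22 (SE), adjusted p = 0.151).

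The direction of this list depended on which cells were counted. In all resting stem cells 14 of 17 lay above 0 with a median of 0.49, while 50.5% of all genes lay above 0. In the stricter selection 1 of 13 lay above 0 with a median of -0.98, Atf3 was called lower (-1.70, adjusted p = 0.0495), Fos was lower as well (-1.17, adjusted p = 0.041) and Dusp1 had -1.57 (adjusted p = 0.264). The median cell held 2 UMIs of the list in each library after thinning, and the 90th percentile was 9.0, 8.0, 22.6 and 15.1. Goblet cells of 0D held 1002 and 940 CPM of Atf3, against 89.9 and 74.2 CPM in the resting stem cells. The part of cells with a secretory profile in these values was measured only through the stricter selection.

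Rbm3, a cold-inducible RNA-binding protein, was called higher in all resting stem cells and in the stricter selection. It was at 265 and 268 CPM in 0D and 439 and 457 CPM in 2D, and rose by a log2 difference of 0.67 ± 0.11 (SE, adjusted p = 0.0198), with 0.76 in the stricter selection (adjusted p = 0.0134). The 0D libraries were nearly level with each other, and both 2D libraries lay above them. Its adjusted p was 0.0678 without 0D-1 and 0.0514 without 2D-1, with log2 differences from 0.61 to 0.71 over the 4 leave-outs. Goblet cells of 0D held less Rbm3 (141 and 149 CPM) than resting stem cells. A thinned Rbm3 UMI was found in 41.7%, 38.7%, 48.3% and 52.0% of resting stem cells. In enterocytes the shares were 26.1%, 27.9%, 38.6% and 46.3%, also higher in 2D. Cirbp, the related cold-inducible protein, was at 24.7, 31.7, 31.2 and 22.2 CPM and did not pass (adjusted p = 0.870).

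Anxa2 and Scd2 were called as well. Anxa2, a calcium-dependent membrane-binding protein counted in an injury and fetal list, was at 31.4 and 29.2 CPM in 0D and 71.4 and 61.8 CPM in 2D, and rose by 1.05 ± 0.16 (SE, adjusted p = 0.0182; 0.115 without 2D-1), with 1.24 in the stricter selection (adjusted p = 0.0451). It was the 1 called member of 9 tested in that list, and goblet cells of 0D held 399 and 438 CPM of it. Scd2, a desaturase that makes monounsaturated fatty acids, was at 26.3 and 26.7 CPM in 0D and 52.6 and 62.6 CPM in 2D (1.03 ± 0.18 (SE), adjusted p = 0.0275; 0.0514 if 2D-1 is left out and 0.0731 if 2D-2 is), and had 1.29 in the stricter selection (adjusted p = 0.0511). It was the 1 called member of 17 tested genes of cholesterol and lipid synthesis, of which 12 lay above 0, and its level in goblet cells of 0D was 64.2 and 96.9 CPM.

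**Figure D3:**
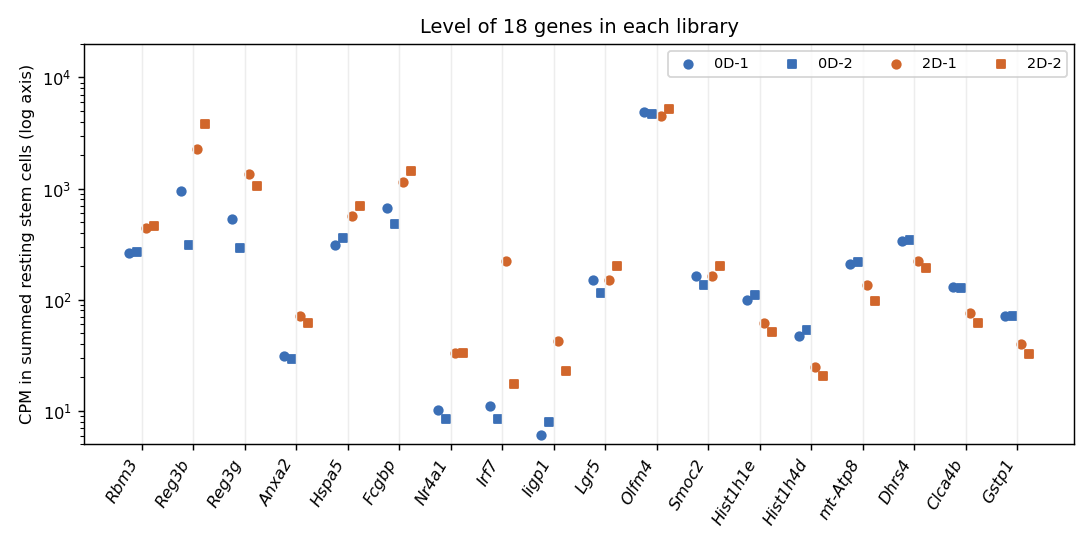
CPM of 18 genes in the summed resting stem cells of each library on a log axis; blue is 0D, orange 2D, circles replicate 1 and squares replicate 2. Lgr5 and Olfm4, which chose the cells, overlap between the groups, the genes from Rbm3 to Iigp1 lie higher in 2D with Irf7 far apart in 2D-1 alone, and those from Hist1h1e to Gstp1 lie lower in 2D.

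Among genes that fell, replication-dependent histones, which package new DNA and are made in S phase, gave 2 of 11 calls. All 16 tested members lay below 0, against 49.5% of all genes, with a median log2 difference of -0.54. An unadjusted p under 0.05 was found for 8 of them, against 6.58% of all genes that were lower at this limit. Hist1h1e, a linker histone, was at 99.9 and 111 CPM in 0D and 62.3 and 51.5 CPM in 2D, and fell by 0.96 ± 0.15 (SE, adjusted p = 0.0182; 0.0514 without 2D-1). Hist1h4d, a copy of histone H4, was at 47.1 and 52.9 CPM in 0D and 24.7 and 20.6 CPM in 2D, and fell by 1.21 ± 0.19 (SE, adjusted p = 0.0182; 0.0696 without 2D-1). In the stricter selection all 12 tested members lay below 0, where Hist1h1e kept its call (-1.20, adjusted p = 0.00539) and Hist1h4d did not (-1.11, adjusted p = 0.0863). Copies of a histone are near-identical, so the share of each is uncertain. The list summed to 466, 539, 354 and 273 CPM in resting stem cells. Its sum was also lower in each 2D library outside these cells. It was 2740, 2987, 2159 and 1818 CPM in dividing stem cells and 455, 497, 303 and 393 CPM in enterocytes.

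Other cell cycle genes lay on the same side with no call by edgeR or DESeq2. Of 27 S phase genes 23 lay below 0 with a median of -0.20, with 7 at an unadjusted p under 0.05. Of 14 G2 and mitosis genes outside the rule 13 lay below 0 with a median of -0.65, with 3 at an unadjusted p under 0.05. Tipin, a protein that protects replication forks, was at 43.2 and 52.4 CPM in 0D and 26.6 and 26.9 CPM in 2D and did not pass (adjusted p = 0.0698). Cenpa, the histone of centromeres, was at 26.6 and 37.1 CPM in 0D and 20.8 and 14.3 CPM in 2D (adjusted p = 0.178). The rule capped 3 genes of this programme, Mki67, Top2a and Cenpf, so these values describe cells below that limit. The S phase list summed to 1659, 1778, 1558 and 1504 CPM in resting stem cells. It was at 2241, 2425, 2127 and 2306 CPM in dividing stem cells and 260, 249, 239 and 243 CPM in enterocytes. The G2 and mitosis list, with the 3 capped genes, summed to 372, 453, 346 and 256 CPM in resting stem cells. In dividing stem cells it was 4030, 4060, 4607 and 3838 CPM. Resting is thus a name for this limit, and S phase transcripts were present.

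Genes of the mitochondrial genome gave 2 calls by edgeR, both lower. Of the 13 genes encoded in mitochondrial DNA, mt-Atp8, a subunit of ATP synthase, fell from 209 and 219 CPM to 137 and 98.2 CPM (-0.94 ± 0.14 (SE), adjusted p = 0.0182), and mt-Nd4l, a subunit of complex I, fell from 410 and 426 CPM to 304 and 276 CPM (-0.61 ± 0.11 (SE), adjusted p = 0.0318). Both were called in the stricter selection (-1.09, adjusted p = 0.00293, and -0.72, adjusted p = 0.0282). The call of mt-Nd4l was lost when any 1 library was left out (adjusted p from 0.0576 to 0.0859). The other 11 members were not called by edgeR, and DESeq2 called both and mt-Nd2 (-0.41, adjusted p = 0.0483). Of the 13, 10 lay below 0, 6 of them at an unadjusted p under 0.05, and all 13 lay below 0 in the stricter selection. They summed to 60702, 59336, 66005 and 54026 CPM, with no order by group.

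All 30 nuclear genes of oxidative phosphorylation lay below 0, with a median log2 difference of -0.25, and 15 had an unadjusted p under 0.05, but edgeR called none and DESeq2 called 1, Ndufb9 (-0.45, adjusted p = 0.0446). The stricter selection had 29 of 30 below 0. Ndufb2, an accessory subunit of complex I, was at 246 and 294 CPM in 0D and 201 and 197 CPM in 2D (adjusted p = 0.0971). Tomm7, a small part of the import pore of the outer membrane, fell from 421 and 441 CPM to 321 and 298 CPM (-0.56 ± 0.11 (SE), adjusted p = 0.0486), a call lost without any 1 of the libraries (adjusted p from 0.0823 to 0.129).

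Genes of the ribosome lay slightly below 0. All 42 tested cytosolic ribosomal protein genes lay below 0, with a median of -0.17. None was called by edgeR or DESeq2, and 4 had an unadjusted p under 0.05. Rps21 was at 2760 and 2607 CPM in 0D and 1987 and 2274 CPM in 2D (adjusted p = 0.198).

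The call with the smallest p was Gm42418, a model annotated as a long noncoding RNA at chr17:39846958-39848788. It is named here although the rule for named genes leaves out predicted genes. It was at 13580 and 12411 CPM in 0D and 6219 and 5316 CPM in 2D, and fell by 1.26 ± 0.14 (SE, adjusted p = 0.0118), a call that each of the 12 alternative fits kept. AY036118, another noncoding model that lies inside it on the opposite strand, fell by 0.67 ± 0.12 (SE, adjusted p = 0.0281; 0.0671 when 0D-1 is left out and 0.142 when 2D-1 is). The 2 models overlap in position, and how far their reads were told apart by strand was not tested. The level of Gm42418 also differed in enterocytes, with 12291 and 12995 CPM in 0D and 7127 and 8451 CPM in 2D. In goblet cells it was at 11970 and 11058 CPM in 0D and 7990 and 3181 CPM in 2D. In Paneth cells it was at 4415 and 5673 CPM in 0D and 2433 and 1898 CPM in 2D. What kind of RNA these reads derive from was not tested.

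Enzymes of metabolism and detoxification gave 2 named calls among the lower genes. Dhrs4, a reductase of retinal and other carbonyls, was at 340 and 347 CPM in 0D and 225 and 191 CPM in 2D, and fell by 0.81 ± 0.11 (SE, adjusted p = 0.0173), also in the stricter selection (-0.73, adjusted p = 0.0324). Gstp1, a glutathione S-transferase whose reads can be shared with close copies, was at 71.8 and 70.7 CPM in 0D and 39.6 and 32.5 CPM in 2D, and fell by 1.06 ± 0.16 (SE, adjusted p = 0.0182; 0.0514 without 2D-1). It was the 1 called gene of 20 tested antioxidant and glutathione genes, of which 13 lay below 0. Clca4b, a member of the calcium-activated chloride channel regulators, was at 130 and 128 CPM in 0D and 76.6 and 61.8 CPM in 2D, and fell by 0.98 ± 0.14 (SE, adjusted p = 0.0173). Goblet cells held 2.94 and 3.18 CPM of Clca4b in 0D, and in the stricter selection it was called lower too (-1.05, adjusted p = 0.0098).

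Of 18 tested genes of fatty acid oxidation and ketogenesis 13 lay below 0, with a median of -0.28. Neither tool called any of them, and 1 was higher and 7 lower at an unadjusted p under 0.05.

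Pathways tied to sleep and stress hormones gave no call by edgeR or DESeq2 in these cells. Of all genes tested, 50.5% lay above 0, and 6.95% were higher and 6.58% lower at an unadjusted p under 0.05. Of 9 tested clock genes 7 lay above 0 (2 higher at an unadjusted p under 0.05), and Nr1d1, a repressor within the clock, was at 3.32 and 3.46 CPM in 0D and 9.09 and 7.13 CPM in 2D (adjusted p = 0.267). Of 13 glucocorticoid-responsive genes 11 lay above 0 (2 higher and 1 lower at an unadjusted p under 0.05), and Fkbp5, a chaperone induced by the hormone, was at 14.2 and 15.8 CPM in 0D and 27.9 and 23.8 CPM in 2D (adjusted p = 0.240). Without 2D-1 the median of that list was -0.04. Of 18 p53 and cell death genes 13 lay below 0 and none had an unadjusted p under 0.05. Receptors for serotonin, acetylcholine and adrenaline were mostly too low to test, with 5 of 18 genes passing the filter and 7 at 0 in every library. The labels give no time of day for the collection, so clock phase and group cannot be told apart.

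**Figure D4:**
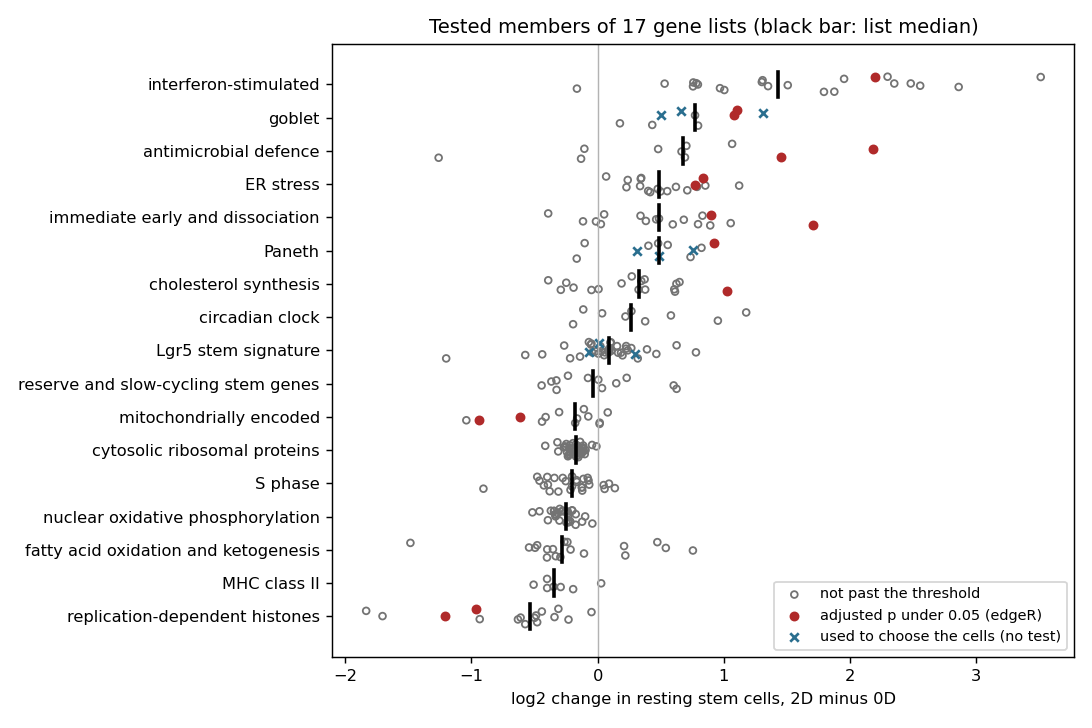
Log2 change from 0D to 2D of the tested members of 17 gene lists in resting stem cells; each point is 1 gene, filled red where edgeR's adjusted p was under 0.05 and crossed where the gene chose the cells, and the black bar is the list median. Interferon, goblet, antimicrobial and ER stress genes lie mostly above 0, the Lgr5 stem signature is centred near 0 and histone genes lie below it.

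Dividing Lgr5 stem cells of the same libraries are the nearest cells to these. They gave 1 call of 11796 genes (0.00848%) between 2D and 0D, the histone gene Hist1h2ab, which fell by 1.36 ± 0.12 (SE, adjusted p = 0.0333). The difference of the change between the resting and the dividing cells was tested with a class-by-group term in a model blocked by library, which called 28 of 11072 genes (0.253%), 14 in each direction. These calls depended on single libraries, since 2 genes were called without 0D-1 (none of the 28 among them) and 3 without 0D-2 (all 3 among the 28), while leaving out 2D-1 gave 30 (13 of the 28) and leaving out 2D-2 gave 143 (25 of the 28).

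The positive terms included goblet and immediate early genes. Fcgbp changed by 1.08 in resting and 0.37 in dividing stem cells (difference 0.73 ± 0.08 (SE), adjusted p = 1.22e-05). Nr4a1 was at 9.45, 6.43, 5.90 and 6.73 CPM in the dividing cells, with no rise there, and the difference was 2.13 ± 0.31 (SE, adjusted p = 0.000499). Dusp1, Jun, Fos, Fosb and Atf3, further immediate early genes, also had positive terms, from 0.72 for Jun to 1.38 for Dusp1. Neat1 had a term of 0.89 ± 0.19 (SE, adjusted p = 0.0362). Muc2 and Tff3 were among the 28 too, but both chose the cells.

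The negative terms included alpha-defensin, cell cycle and hormone genes. Of the 14, 3 were the defensins Defa22 (-1.05 ± 0.15 (SE)), Defa20 (-2.86 ± 0.42 (SE)) and Defa32 (-3.05 ± 0.65 (SE)), whose reads can be split among near-identical copies. Defa20 was at 30.2, 16.8, 14.3 and 7.13 CPM in resting and 2.65, 3.497, 8.57 and 11.3 CPM in dividing stem cells. Defa32 rested on 52, 12, 9 and 1 UMIs in the resting cells. Neither Defa32 nor Defa20 passed edgeR's test between the groups there (adjusted p = 0.270 and 0.190). Both lay lower in each 2D library than in either 0D library, while groups without overlap were found for 45.3% of all genes tested. Hmgb2, a chromatin protein of cycling cells, changed by -0.73 in resting and -0.15 in dividing stem cells (term -0.58 ± 0.09 (SE)), and Hist1h1b by -1.70 and -0.46. Gm42418 fell by 1.26 in resting cells and changed by -0.71 in dividing cells (term -0.54 ± 0.07 (SE), adjusted p = 4.98e-05). Cck and Pyy, hormones of enteroendocrine cells, rested on few molecules, with 395, 53, 59 and 13 UMIs of Cck in the resting cells. Pyy had 45, 1, 1 and 0 UMIs, so its term came from 1 library and no fold is given.

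For several genes called in the resting cells no difference between the classes was detected. Rbm3 changed by 0.67 ± 0.11 (SE) in resting and 0.91 ± 0.10 (SE) in dividing stem cells, where it was at 262, 270, 466 and 544 CPM (term -0.23 ± 0.09 (SE), adjusted p = 0.489). Reg3g changed by 1.45 and 1.69 (term -0.15 ± 0.11 (SE), adjusted p = 0.772) and Hspa5 by 0.83 and 0.64 (term 0.23 ± 0.10 (SE), adjusted p = 0.535). Terms for mt-Atp8 (-0.12 ± 0.12 (SE), adjusted p = 0.843) and Dhrs4 (-0.37 ± 0.10 (SE), adjusted p = 0.172) also missed the threshold. A term that misses the threshold does not show that the classes changed alike, and that these genes were called in 1 class alone does not show that they differed.

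**Figure D5:**
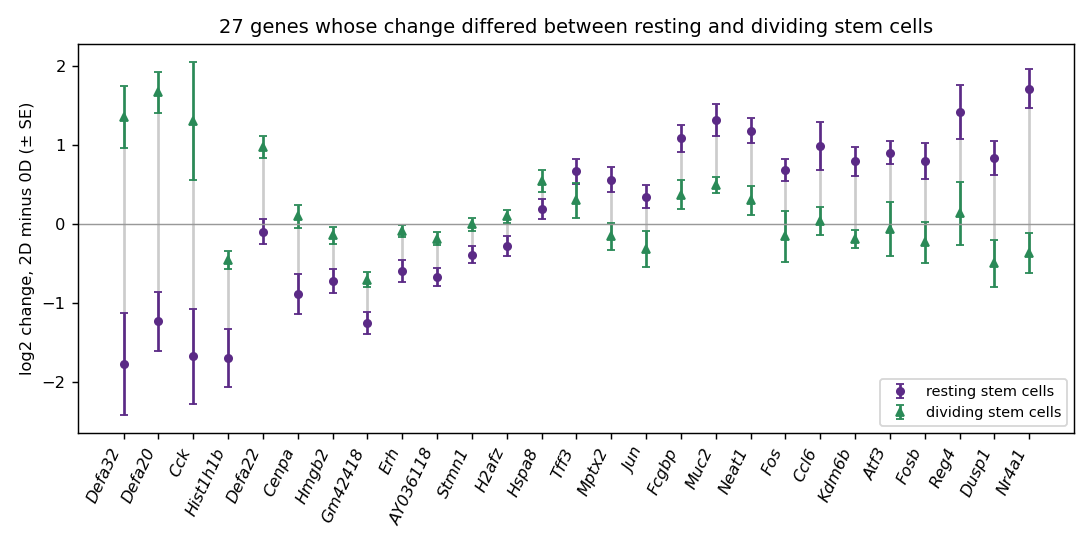
Log2 change from 0D to 2D (± SE) in resting (purple circles) and dividing (green triangles) stem cells for 27 of the 28 genes whose change differed between the classes in edgeR's class-by-group test; Pyy was too low to be tested in the resting cells and is not drawn, and Muc2 and Tff3 chose the cells. Immediate early genes and Fcgbp lie higher in the resting cells, and Hmgb2, Hist1h1b and Cck lie lower.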

How the data were processed

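The deposited files hold raw UMI counts per gene and cell barcode, with no normalization by the authors. Per the labels' protocols the libraries were made with a 10x Genomics 3′ kit. The counting program was Cell Ranger 2.1.1 with build mm10 per the submitters' processing notes, but cellranger 7.0.0 per the file headers. Whether intron reads were counted is not given in the sources used here. The 4 libraries held 9561, 9363, 9703 and 10024 barcodes with 117885126, 115715547, 118874594 and 96124977 UMIs, and no barcode had fewer than 500 UMIs. The precision of a gene follows its summed UMIs, and the intervals on shares are exact (Clopper-Pearson) 95% binomial intervals that cover counting error only.

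The cells and gene lists were chosen with earlier results of these data known, and no deposited cell annotation was used here. Scores were means of z-scored log counts per 10000 UMIs. Doublets were not removed in the main result. Leaving out the top 8% of Scrublet scores was an alternative. UMIs summed per library were tested with edgeR 4.0.16 (filterByExpr, TMM, glmQLFTest with group as the only term, Benjamini-Hochberg), under R 4.3.3. Standard errors are the log2 change divided by the square root of F. The script was tested on simulated data first. DESeq2 1.42.0, no filter on low counts, a block for the replicate number, each library left out, at most 10% mitochondrial UMIs, thinning to 2000 UMIs, a stem score of at least 1.0, other lineage scores below 0 and fewer doublets were the alternatives. With a library left out, 1 group has a single library, which is assumed to vary like the others.

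Named genes were those of the selection, the 10 with the smallest p in each direction without predicted genes, up to 4 per list (10 for the stem signature), the 10 leading over other cells and the 4 with the smallest p of the class-by-group term. Gm42418 as a called gene, Pla2g5, Marcksl1, Hist1h2ab, mt-Nd2, Ndufb9, Isg15, Cirbp, Hspa5 partners with a promoter match, and class-by-group genes past the first 4 were added after their values were seen. Some genes that the rule names are not reported here. List symbols matched for 703 of 705 entries (Mx1 and Mx2 did not). Same-numbered libraries did not deviate together (r = -0.024), so the numbers were not taken as pairs. Python was 3.11.15 and scanpy 1.11.5.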

Additional observations from a re-analysis of the deposited data

Results flagged for a closer look

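The change from 0D to 2D differed between resting and dividing Lgr5 stem cells for 28 genes by the test of the difference itself, a class-by-group term in edgeR in a model blocked by library. The 4 with the smallest p were Fcgbp (adjusted p = 1.22e-05), Pyy (adjusted p = 2.19e-05), Gm42418 (adjusted p = 4.98e-05) and Cck (adjusted p = 7.38e-05). For Fcgbp the resting cells changed by 1.08 and the dividing cells by 0.37 on the log2 scale. The groups of resting libraries lay apart (666 and 484 CPM against 1142 and 1436 CPM), as did those of 45.3% of all genes tested. In the stricter selection the change of Fcgbp in resting cells was 0.58 (edgeR adjusted p = 0.345), and the class-by-group term was not run there. For Pyy, the resting stem cells held 45 UMIs in 0D-1 and at most 1 in each other library. For Cck the 0D libraries held 119 and 26.2 CPM and the 2D libraries 38.3 and 10.3 CPM, so the groups overlapped. Without 0D-1 the number of genes past the threshold was 2 and without 0D-2 it was 3.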

How the results depend on the processing

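The 42 genes called between 2D and 0D became 348 with no filter on low counts, 81 with at most 10% mitochondrial UMIs and 87 without the top doublet scores (40 of the 42 in each), 20 with the other lineage scores below 0 and 1 with a stem score of at least 1.0. Leaving out 1 library gave 24 to 142. With the replicate number as a block, 238 genes were called, the 42 among them, although the numbers did not pair the libraries. DESeq2 gave 37, with 19 of the 42 among them, and thinned cells 39, with 20 of the 42 among them (38 of the 42 could be tested). Of the calls, 73.8% were higher in 2D, against 51.4% with DESeq2, 64.1% with no filter on low counts, 81.7% and 87.3% without 0D-2 and without 2D-2, 84.6% in thinned cells and 30.0% with the other lineage scores below 0. The difference in the share of resting stem cells among filtered cells (-1.76 points) kept its sign in each alternative, was -4.08 in thinned cells and ran from -0.878 without 0D-1 to -2.65 without 0D-2. The resting share of Lgr5-type stem cells (0.496 points) turned to -2.57 with the other lineage scores below 0, -0.154 without the top doublet scores and -3.98 in thinned cells, and ran from -3.90 to 4.89 when 1 library was left out. The 28 genes of the class-by-group term became 88 with no filter, and 2 to 143 when 1 library was left out. Of 956 values of named genes under an alternative, 726 kept their side of the threshold, 116 passed it newly, 105 no longer passed it and 9 changed sign. With the other lineage scores below 0, Neat1 turned to -0.33, Atf3 to -1.70, Fos to -1.17 and Dusp1 to -1.57. Over the libraries left out in turn, Isg15 ran from -0.31 (without 2D-1) to 3.73 and Pdia6 from -0.12 (without 0D-1, with -0.03 without 2D-2) to 0.26. Cck turned to 1.60 in thinned cells and 1.89 without the top doublet scores. The cause of these shifts was not tested, beyond the fewer cells or libraries that each alternative holds. The 2D libraries had 1540811 and 1262143 UMIs of resting stem cells, which limits the calls for genes of low level.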
